A study of Mus musculus with 12 samples.

Results

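RefSeq model noncoding records are transcripts that NCBI's annotation pipeline predicted from the genome sequence and from aligned transcript evidence, without a curator's review, and they carry accessions that begin with XR. They were taken from the array as every probe outside the controls whose name begins with gi and holds an XR accession, with 1 such record left out, which is not reported here. This gave 12145 of the 97835 probes analysed, each printed on 2 spots. Only 3815 of them (31.4%) could be paired with a gene symbol, for 3480 symbols in all. Of the paired records, 3671 carry a placeholder name beginning with Gm, 113 a RIKEN clone name, 15 a LOC name and 16 an established symbol, and the remaining 8330 are known here by accession alone.

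The cells were vascular smooth muscle cells (VSMCs), the contractile cells of the arterial wall, cultured from male mice in smooth muscle medium with serum and growth supplement. Hif1afl/fl cells carry floxed Hif1a alleles and are called floxed below. Hif1a△SMC cells come from mice with a VSMC-specific disruption of Hif1a and are called deleted. Each genotype received 150 µM CoCl2, or PBS in the same volume, over 24 h, and each of the 4 groups has 3 arrays. The age of the mice, the promoter of the Cre and the number of mice behind the 3 arrays of a group are not given in the sources used here, so the p-values measure the spread between these samples only, which may be technical. None of the probes could be paired by accession with Hif1a or with any of 19 marker genes of smooth muscle, endothelial cells, fibroblasts and macrophages, so neither the deletion nor the cell type was checked here.

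Long noncoding RNAs act in the nucleus or cytoplasm as scaffolds, decoys or local regulators of transcription, host small RNAs, or are by-products of transcription at promoters and enhancers, and they tend to be less abundant than messenger RNAs. HIF-1α is the oxygen-regulated subunit of the transcription factor HIF-1. Cobalt ions block the prolyl hydroxylases that mark it for destruction, so CoCl2 mimics hypoxia, and HIF-1 then binds a short core sequence, ACGTG or GCGTG, near genes of glycolysis, angiogenesis and iron handling.

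The start-site windows of 4 records are printed to show what a HIF core looks like beside a predicted transcript and that members whose levels moved do and do not hold one. Gm12762 lies beside Gpi1, which encodes an enzyme of glycolysis, and rose with CoCl2 in deleted cells. Gm41056 fell with CoCl2 in both genotypes. Lincred2 lies beside Slc2a1, which encodes the main glucose transporter of most cells, and was lower in deleted than in floxed cells under CoCl2. Gm40662 lies beside Pfkp, which encodes a phosphofructokinase of glycolysis, and fell furthest of the records beside genes of the HIF and glycolysis list. The sequences are RefSeq promoter windows of build GRCm38.p6, from 250 bases before to 50 bases after the annotated start, read 5′ to 3′ on the strand of the gene, with every ACGTG or GCGTG on either strand in capitals. They are Gm12762 at chr7:34234274-34234573 on the minus strand, Gm41056 at chr13:108401817-108402116 on the plus strand, Lincred2 at chr4:119050756-119051055 on the plus strand and Gm40662 at chr13:7076148-7076447 on the minus strand.
Gm12762: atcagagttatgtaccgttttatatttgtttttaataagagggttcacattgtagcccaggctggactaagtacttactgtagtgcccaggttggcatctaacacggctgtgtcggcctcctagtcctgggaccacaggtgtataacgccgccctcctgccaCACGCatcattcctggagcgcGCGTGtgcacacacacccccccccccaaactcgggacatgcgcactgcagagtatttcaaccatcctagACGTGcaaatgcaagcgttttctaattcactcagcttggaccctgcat
Gm41056: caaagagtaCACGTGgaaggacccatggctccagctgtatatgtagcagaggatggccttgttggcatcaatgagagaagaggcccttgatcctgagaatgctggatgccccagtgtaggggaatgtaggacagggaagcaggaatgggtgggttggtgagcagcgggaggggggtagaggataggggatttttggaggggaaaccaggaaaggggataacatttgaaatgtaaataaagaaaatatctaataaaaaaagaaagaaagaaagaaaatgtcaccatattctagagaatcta
Lincred2: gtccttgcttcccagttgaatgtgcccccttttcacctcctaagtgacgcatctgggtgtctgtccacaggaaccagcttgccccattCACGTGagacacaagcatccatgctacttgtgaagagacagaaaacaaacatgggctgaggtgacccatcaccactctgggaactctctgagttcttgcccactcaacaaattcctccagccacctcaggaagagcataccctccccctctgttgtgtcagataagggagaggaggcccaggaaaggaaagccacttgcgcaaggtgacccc
Gm40662: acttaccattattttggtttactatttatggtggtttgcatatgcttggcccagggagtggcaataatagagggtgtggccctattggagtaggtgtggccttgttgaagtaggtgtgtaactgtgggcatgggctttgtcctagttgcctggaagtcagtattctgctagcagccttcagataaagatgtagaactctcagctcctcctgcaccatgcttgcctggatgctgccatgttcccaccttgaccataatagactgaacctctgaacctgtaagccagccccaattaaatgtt

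The Gm12762 window held 3 HIF cores and 13 CpG dinucleotides. The windows of Gm41056 and Lincred2 held a single CACGTG each, which is counted as 2 matches because ACGTG reads on both strands. The Gm40662 window held neither core and no CpG. Across the 3324 windows of the paired symbols, 1021 (30.7%) held at least 1 core, against 14380 of all 32851 RefSeq windows (43.8%). The median number of CpG was 4 per window for the paired symbols and 7 for all genes. The windows cover 2545 of the 3480 paired symbols, and the 8330 unpaired records have none here. Of the 14 windows of symbols whose records rose with CoCl2 in both genotypes, 4 (28.6%) held a core. These are matches of letters and not binding sites.

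Values below are log2 processed signals minus the 75th percentile of the array, so a level of 0 is that percentile and a difference of 1 is a doubling. A probe counts as detected when the scanner software marked at least 1 of its spots well above background. The 75th percentile itself, before scaling, was lower in deleted CoCl2 cells (8.17 ± 0.10 on the log2 scale, SD, n = 3) than in floxed PBS (9.37 ± 0.16), floxed CoCl2 (9.26 ± 0.15) and deleted PBS cells (9.07 ± 0.08). The arrays lay on 3 slides. All 3 floxed PBS arrays and floxed CoCl2 array 1 were on slide 1, slide 2 held the remaining pair of floxed CoCl2 arrays together with arrays 1 and 2 of deleted PBS, and deleted PBS array 3 and all 3 deleted CoCl2 arrays were on slide 3. Slide and group therefore overlap in every comparison. Under PBS, as under CoCl2, the genotypes were on separate slides, so neither deletion comparison can be made within a slide.

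Between 61.8% and 67.7% of the model records were detected on the floxed PBS arrays, and between 63.5% and 64.9% on the deleted PBS arrays. On the floxed CoCl2 arrays the share was 58.2%, 79.1% and 71.5%, and the lowest of these was array 1, on slide 1. On the deleted CoCl2 arrays it was 35.5%, 44.3% and 34.8%, below every other array. Other probes also lost detection there, from 78.3% ± 0.971 under PBS to 61.2% ± 3.5 under CoCl2 (SD, n = 3), while the model records went from 64.4% ± 0.767 to 38.2% ± 5.32. In deleted cells 7150 model records were detected on all 3 PBS arrays, and 1781 of them (24.9%) were detected on no CoCl2 array, against 12.2% of other probes. In floxed cells the same count was 0 of 7193 model records and 31 of 62567 other probes. Detection moves with the signal of the whole array, which was lowest in deleted CoCl2 cells, and its part in this loss was not tested. In bulk RNA, fewer cells with a transcript and less of it per cell cannot be told apart.

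**Figure D1:**
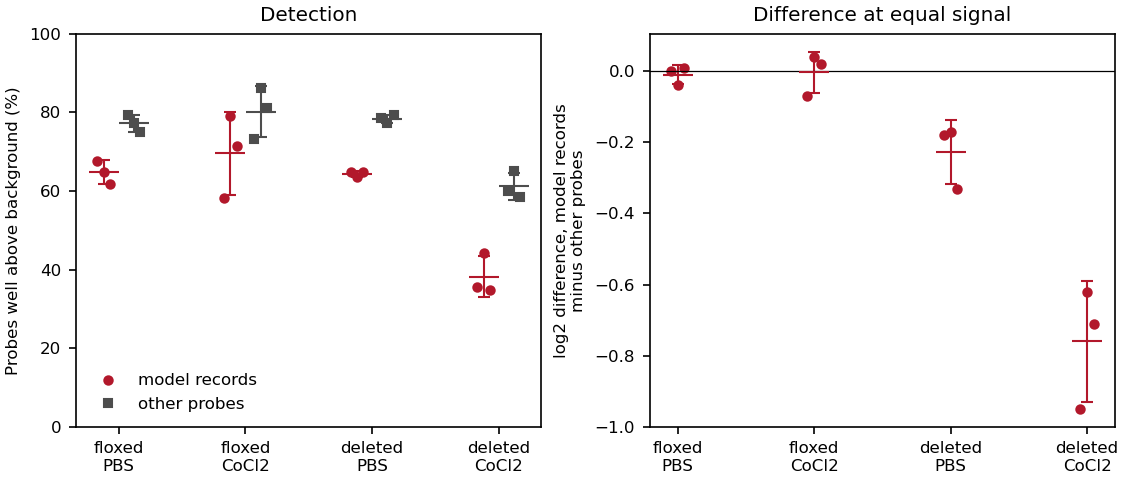
Left, share of probes well above background (%) on each of the 3 arrays per group, for the 12145 model records (red) and other probes (grey). Right, log2 level of model records minus that of other probes with the same floxed PBS signal. Points are arrays and bars the mean and SD; the 3 deleted CoCl2 arrays lie below all others in both panels, at 34.8% to 44.3% and at -0.95 to -0.62.

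Because model records are dim, they were set against other probes of equal signal. The 69760 probes detected on all 3 floxed PBS arrays, 7193 of them model records, were cut into 20 bins of equal size by their mean signal on those arrays. In each bin the median of the other probes was subtracted from that of the model records, and the bins were averaged by their number of model records. On single arrays this difference was -0.00, -0.04 and 0.01 for floxed PBS and -0.07, 0.04 and 0.02 for floxed CoCl2, so the floxed groups overlapped. It was -0.18, -0.17 and -0.33 for deleted PBS and -0.95, -0.62 and -0.71 for deleted CoCl2. Both deleted groups lay below all 6 floxed arrays, and deleted CoCl2 lay below deleted PBS without overlap. The lowest deleted PBS array, array 3, is the one that shares slide 3 with the deleted CoCl2 arrays. Against that 1 array, the mean of the deleted CoCl2 arrays differed by -0.43. The group means were -0.76 for deleted CoCl2 and -0.23 for deleted PBS, so the distance was narrower within slide 3 than between the groups.

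As a change with CoCl2 in deleted cells, model records differed from other probes of equal signal by -0.46 (log2), and were lower in 20 of 20 bins, by between -0.69 and -0.12. The value was -0.23 for deletion under PBS, -0.88 for deletion under CoCl2 and -0.55 for the difference between the CoCl2 effects of the genotypes, again with model records lower in 20 of 20 bins. For CoCl2 in floxed cells it was 0.01, with model records lower in 6 of 20 bins. The bins were set on the floxed PBS arrays, which also enter CoCl2 in floxed cells, deletion under PBS and the difference between the CoCl2 effects. Those arrays do not enter CoCl2 in deleted cells or deletion under CoCl2. The 2 CoCl2 comparisons share no array, whereas the deletion comparisons share arrays with them. These differences are descriptions with no test. The gap kept its sign in the 4 comparisons other than CoCl2 in floxed cells under every alternative for which it was computed. It narrowed to -0.15 for CoCl2 in deleted cells when the other probes were limited to curated records. It was not computed with slide or replicate as a block, or with detection required on all spots.

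**Figure D2:**
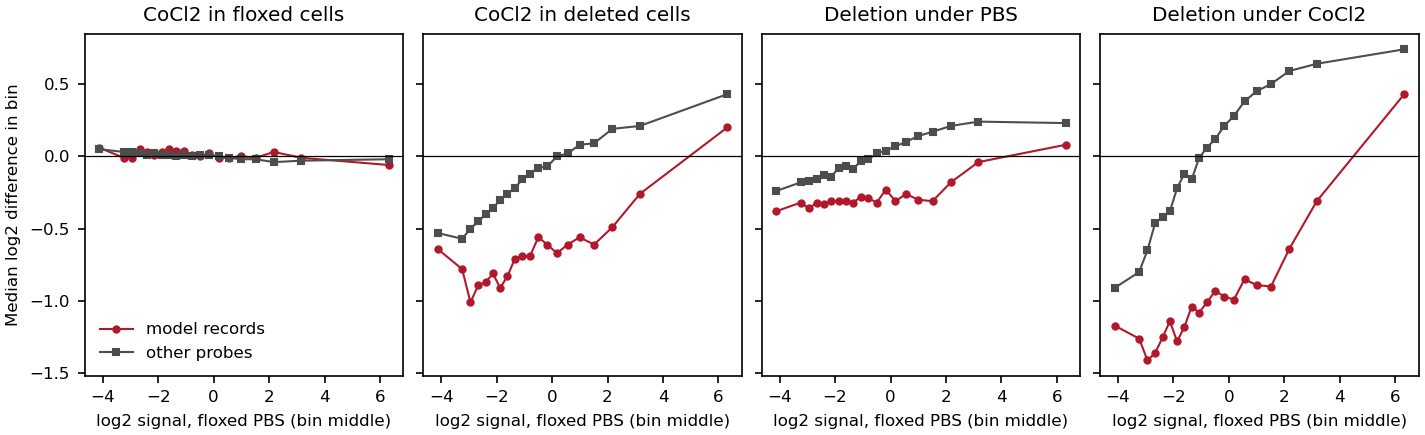
Median log2 difference (vertical axis) of model records (red circles) and other probes (grey squares) in 20 bins of floxed PBS signal (horizontal axis, log2 relative to the 75th percentile), for CoCl2 in floxed and deleted cells and for deletion under PBS and CoCl2. The lines lie together for CoCl2 in floxed cells, with bin differences of -0.04 to 0.07, and model records lie below other probes in all 20 bins of the other panels.

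The other probe classes of the array were set against the remaining probes in the same way. At equal signal, curated RefSeq noncoding records (NR) differed from the remaining probes by -0.22 for CoCl2 in deleted cells and by -0.30 for deletion under CoCl2. Ensembl transcripts differed by -0.29 and -0.59, and NONCODE transcripts by -0.06 and -0.23. RIKEN clone probes lay above the rest, by 0.28 and 0.35, and so did Agilent catalogue probes, by 0.16 and 0.40. Model records set against curated records alone differed by 0.02 for CoCl2 in floxed cells, -0.15 for CoCl2 in deleted cells, -0.16 for deletion under PBS and -0.52 for deletion under CoCl2.

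**Figure D3:**
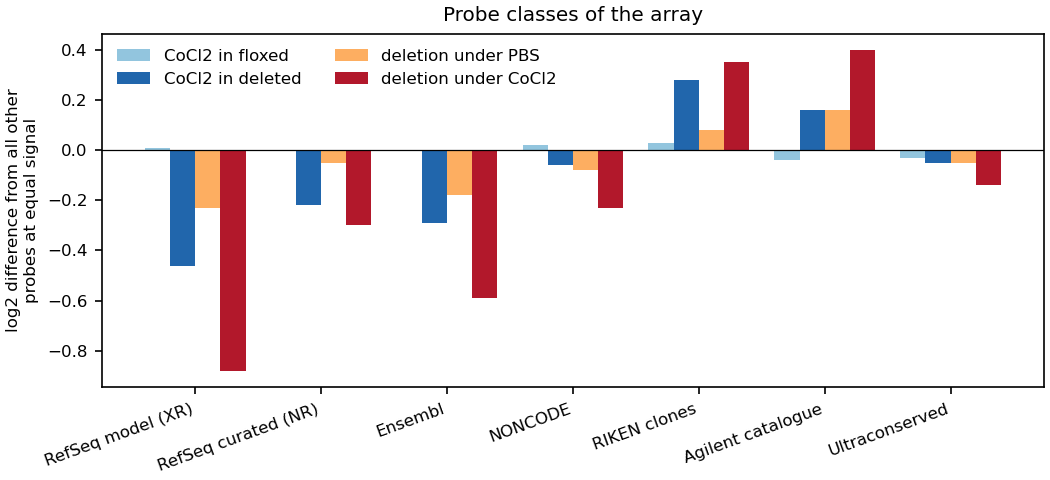
Log2 difference of each probe class of the array from all other probes at equal floxed PBS signal (bars, no error available because each bar is a median over probes), for 4 comparisons. Model records have the lowest bars for CoCl2 in deleted cells (-0.46) and deletion under CoCl2 (-0.88), while RIKEN clones and catalogue probes lie above 0 in both.

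Without the bins, the median change over all 12145 model records was 0.00 for CoCl2 in floxed cells, -0.16 for CoCl2 in deleted cells, -0.31 for deletion under PBS and -0.42 for deletion under CoCl2. The medians of all other probes were -0.01, 0.09, -0.05 and 0.23. Many of the 12145 were near background in every group. Over the 7193 detected in floxed PBS cells, the medians were 0.02, -0.73, -0.30 and -1.10, and the middle portion for deletion under CoCl2 ran from -1.92 to -0.05 (quartiles). Of these, 76% lay below 0 for deletion under CoCl2, against 46.8% of other probes. Another scaling shifts every probe by the same amount. Scaling to all 10 E1A control probes moved deletion under CoCl2 by 0.41, so that the median over all model records was -0.00. Scaling to 4 of those probes moved it by -1.23, to -1.65. The distance between model records and other probes does not depend on this.

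Of the paired records detected in floxed PBS cells, 1540 lie between coding genes and 624 overlap one. Their median floxed PBS signals were -2.00 and -1.87. The intergenic records had a median of -0.92 for CoCl2 in deleted cells and -1.50 for deletion under CoCl2, and the overlapping ones -0.61 and -0.92. For CoCl2 in floxed cells the medians were 0.02 and 0.01. For 106 genes with more than 1 record detected in floxed PBS cells, 223 records in all, the records had the same sign in 88 genes for CoCl2 in deleted cells and in 57 for CoCl2 in floxed cells. Of all model records detected in floxed PBS cells, 75.8% lay below 0 for CoCl2 in deleted cells and 47.2% for CoCl2 in floxed cells. Such a common direction alone makes signs match more often. The match between records of different genes was not computed, so these counts are not read as agreement within genes.

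Single records were tested with limma across all 73999 probes detected on all 3 arrays of at least 1 group, with Benjamini-Hochberg adjustment and a threshold of 0.05. Of the model records 7745 (63.8%) passed that filter and 4400 did not, against 77.3% of other probes that passed. As 622 passed through a single group only, the counts of calls are given beside the background and are not read as support. Of the 124 calls named below, 69 were lost with slide as a fixed block. A fold marked "at least" is one where a record was not detected on any array of the dimmer group. Most such folds equal the plain ratio of means, and they are not limits set by detection. The words only mark records of this kind throughout and set no lower limit to the fold. In deleted CoCl2 cells Gm36843 was not detected even at -3.53, so smaller folds remain possible for records marked this way.

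CoCl2 in floxed cells moved few model records. Of 7745, 89 rose (1.15%, background 2.06%) and 68 fell (0.878%, background 2.58%). The count of 157 was 99, 49 and 75 without floxed PBS array 1, 2 or 3. It was 306, 92 and 43 without floxed CoCl2 array 1, 2 or 3, and 101 without deleted PBS array 1. With slide as a fixed block it was 57, with 7 of them rises.

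Gm15283 overlaps the locus of Hif1a, and whether its probe also reads Hif1a transcripts was not tested. Its levels were -4.04, -3.13 and -2.86 in floxed PBS cells and -1.44, -0.73 and -1.33 in floxed CoCl2 cells. In deleted cells they were -3.54, -3.15 and -3.51 under PBS and -2.11, -2.58 and -2.14 under CoCl2. CoCl2 and PBS arrays did not overlap in either genotype. It rose by 2.18 ± 0.30 (log2, SE) in floxed cells, 4.52-fold (limma adjusted p = 0.00284). In deleted cells the rise was 1.12 ± 0.30, 2.18-fold (adjusted p = 0.0088). The difference between the 2 rises was -1.06 ± 0.42 and did not pass the test (limma adjusted p = 0.0971). With slide as a fixed block neither rise was called (adjusted p = 0.0945 and 0.0708), and the rise in deleted cells was 0.05 when scaled to 4 E1A probes (adjusted p = 0.917).

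Gm29992, between Zfp521 and Ss18, had the largest rise in floxed cells. It lay at -2.53, -3.28 and -2.16 under PBS and at -0.00, 0.22 and 1.01 under CoCl2, without overlap. The rise was 3.07 ± 0.57, or 8.38-fold (limma adjusted p = 0.0121). In deleted cells it was at -2.42, -3.12 and -2.52 under PBS and -4.53, -1.73 and -3.38 under CoCl2, where the groups overlapped and the change of -0.53 ± 0.57 was not called (adjusted p = 0.458). The difference between the genotypes passed the test, at -3.60 ± 0.81 (limma adjusted p = 0.0128). The rise was not called without floxed PBS array 2 (adjusted p = 0.0608) or floxed CoCl2 array 3 (adjusted p = 0.0678), nor with slide as a fixed block (adjusted p = 0.223).

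The record XR_393878, which has no symbol here, rose in both genotypes. It was at -5.07, -5.51 and -5.92 in floxed PBS and -3.15, -2.59 and -2.83 in floxed CoCl2 cells, and at -5.89, -5.99 and -4.09 in deleted PBS and -1.87, -1.83 and -1.83 in deleted CoCl2 cells. CoCl2 arrays lay above PBS arrays in both. The rises were 2.64 ± 0.42 in floxed cells (6.24-fold, limma adjusted p = 0.00594) and 3.48 ± 0.42 in deleted cells (11.1-fold, adjusted p = 0.00014). Under PBS it was detected on 1 of 3 arrays in each genotype. XR_884233 rose in floxed cells at least 6.06-fold (limma adjusted p = 0.028), a call lost without any 1 of the 3 floxed PBS arrays (adjusted p = 0.0502, 0.11 and 0.0944 without arrays 1, 2 and 3).

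Gm41056, between Depdc1b and Pde4d, is the record with a CACGTG in its printed window. It fell from -2.34, -1.87 and -2.46 to -6.03, -4.14 and -5.18 in floxed cells and from -2.46, -2.39 and -2.50 to -4.96, -5.78 and -5.22 in deleted cells. The falls were -2.90 ± 0.39 and -2.87 ± 0.39 (limma adjusted p = 0.00259 and 0.000231), 7.45-fold and 7.33-fold, and their difference was 0.02 ± 0.55. After CoCl2 it was detected on 1 floxed array and on no deleted array. Its call in floxed cells held under all 24 alternatives run for it, as did that of XR_393878.

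Sox5os4 is an antisense transcript at Sox5, which encodes a transcription factor of cartilage and other mesenchymal cells. Its change with CoCl2 was -1.43 ± 0.36 in floxed cells (limma adjusted p = 0.0457). In deleted cells it was -1.39 ± 0.36 (limma adjusted p = 0.00744). Its floxed call was lost without any array except floxed PBS 1 and floxed CoCl2 2, with adjusted p between 0.0538 and 0.184. XR_875791 fell in floxed cells by -2.54 ± 0.57 (limma adjusted p = 0.0282), a call lost without floxed PBS array 2 or 3 or floxed CoCl2 array 1 or 3 (adjusted p = 0.124, 0.0983, 0.0553 and 0.099). Gm36317, at Vps13d, fell by -2.27 ± 0.47 (limma adjusted p = 0.0206), a call lost without floxed PBS array 1 or 2 or floxed CoCl2 array 3 (adjusted p = 0.0726, 0.0955 and 0.0817).

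The 2 CoCl2 comparisons share no arrays, but their tests share 1 estimate of spread per record, taken from all 12 arrays. Their calls are therefore not independent, and the overlap was not computed over all probes. Of all 7745 tested model records 8.65% rose and 50.7% fell in deleted cells. Of the 89 rises 68 (76.4%) also rose in deleted cells, where they made up 10.1% of 670 rises. Of the 68 falls 48 (70.6%) also fell there, 1.22% of 3928 falls.

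CoCl2 in deleted cells lowered far more model records than it raised. Of 7745 records 3928 fell (50.7%, background 32.5%) and 670 rose (8.65%, background 19.3%). Rises made up 14.6% of the calls, against 27.2% after quantile normalization, 29.2% after normexp with quantile normalization, 33.5% among records detected on all 12 arrays, and 0.554% when scaled to 4 E1A probes. The fall reached 2-fold in 2804 records and the rise in 241. The same counts over all tested probes were not made, so these are not read as particular to model records. A fixed block for slide left 1923 falls and 212 rises.

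Gm36843 lies between Irx3 and Irx5, which encode homeobox transcription factors. Its levels were -0.39, -1.36 and -0.21 in floxed PBS, 0.22, 0.17 and 0.44 in floxed CoCl2 and -0.33, -0.76 and 0.00 in deleted PBS cells. In deleted CoCl2 cells they were -5.00, -3.53 and -5.15, below all other arrays and not detected on any. The fall in deleted cells was at least 18.3-fold (limma adjusted p = 5.21e-05). In floxed cells the change was 0.93 ± 0.41 and was not called (adjusted p = 0.288). The difference between the CoCl2 effects was -5.12 ± 0.59 (limma adjusted p = 0.00106). The record XR_863519, without a symbol, had nearly the same pattern, with group means of -0.59, 0.22, -0.45 and -4.47 in the same order, and whether both records report 1 transcript is not known here.

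1500002F19Rik overlaps Abraxas2 and Zranb1, which take part in ubiquitin signalling. It was at 0.11, 0.33 and 0.42 in floxed PBS and -0.42, 0.39 and 0.62 in floxed CoCl2 cells. It was at -0.36, -0.32 and -2.30 in deleted PBS and -5.27, -4.94 and -5.19 in deleted CoCl2 cells. The low deleted PBS array is array 3, the one on slide 3. The fall in deleted cells was at least 17.6-fold (limma adjusted p = 8.21e-05). XR_870930 had the same order, with -0.26, 0.12 and -2.59 in deleted PBS and -5.65, -4.14 and -5.25 in deleted CoCl2 cells, and fell at least 17.1-fold (limma adjusted p = 0.000387). Array 3 stood apart from arrays 1 and 2 in both records.

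Among rises in deleted cells, XR_869656 went from -5.97, -5.35 and -4.86 to -0.67, -1.35 and -2.70, at least 14.1-fold (limma adjusted p = 0.000165). It was detected on no PBS array of either genotype and on 2 floxed CoCl2 arrays. XR_374348 rose at least 10.7-fold (limma adjusted p = 0.000505), again from no detection under PBS.

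Only 10 records with an established symbol passed the filter. Mir133a-1hg, the host transcript of a microRNA of the muscle-enriched miR-133 family, overlaps Mib1 beside Gata6. It was at -1.65, -2.13 and -1.60 in deleted PBS and -0.53, -0.87 and -1.10 in deleted CoCl2 cells, and rose by 0.96 ± 0.19, or 1.95-fold (limma adjusted p = 0.00192). The sign turned to -0.11 when the arrays were scaled to 4 E1A probes, and the call was lost with slide as a fixed block (adjusted p = 0.0731). Zfp286os and Tvp23bos, antisense records of a zinc finger gene and of a Golgi protein gene, fell in deleted cells at least 3.12-fold and at least 3.34-fold (limma adjusted p = 0.000387 and 0.00024). Neither was detected on a deleted CoCl2 array. Nr6a1os is antisense to the nuclear receptor gene Nr6a1 and has 3 records here, which disagreed. XR_866170 fell by -0.61 ± 0.14 (limma adjusted p = 0.00456), a call lost when scaled to all E1A probes (adjusted p = 0.057) or with slide as a fixed block (adjusted p = 0.0765), while XR_866166 and XR_866167 changed by 0.06 ± 0.14 and -0.09 ± 0.15 and were not called (adjusted p = 0.725 and 0.616).

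**Figure D4:**
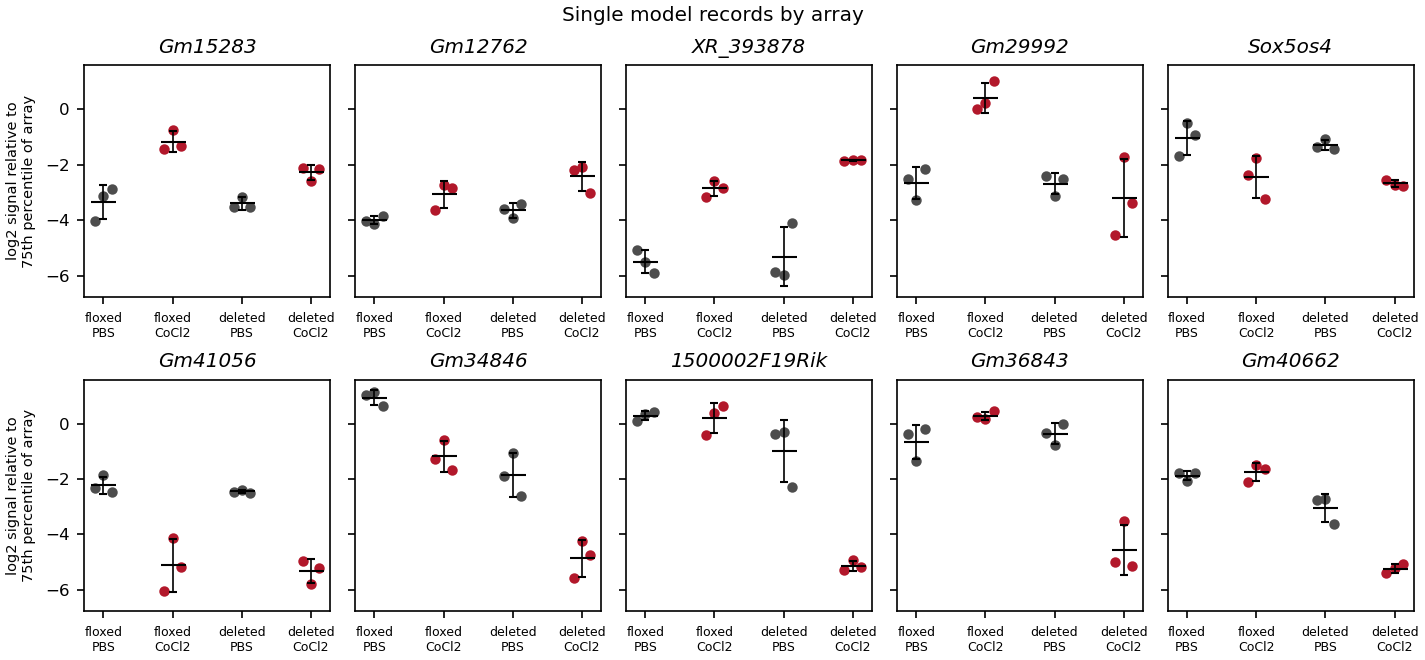
Log2 signal relative to the 75th percentile of the array (vertical axis) for 10 model records in the 4 groups; points are the 3 arrays (grey PBS, red CoCl2) and bars the mean and SD. Gm15283 and XR_393878 lie higher under CoCl2 in both genotypes, Gm41056 and Sox5os4 lower in both, and Gm36843, 1500002F19Rik and Gm40662 drop to between -5.40 and -3.53 in deleted CoCl2 cells.

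The neighbourhood of genes with roles in these cells was read from 11 lists of coding genes. Among the 7745 tested records 128 overlapped or neighboured a listed gene. With CoCl2 in floxed cells 1 of them rose and 1 fell (0.781% each), beside 1.15% and 0.878% of all tested model records. In deleted cells 12 (9.38%) rose and 73 (57%) fell with CoCl2, near the 8.65% and 50.7% of all tested model records, with a median of -0.80 over the 128, beside -0.69 over all tested model records and -0.15 over all tested probes. A neighbour is a position and says nothing about control of the coding gene.

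Beside genes of hypoxia and glycolysis, 18 records were tested. In deleted cells 3 (16.7%) rose and 9 (50%) fell with CoCl2, beside 8.65% and 50.7% of all tested model records. Under CoCl2 12 of 18 (66.7%) were lower in deleted than in floxed cells, beside 61.2% of all tested model records. None was called higher, beside 11.3%. Gm12762, beside Gpi1, was at -3.59, -3.94 and -3.41 in deleted PBS and -2.18, -2.07 and -3.02 in deleted CoCl2 cells, and rose by 1.22 ± 0.29, or 2.33-fold (limma adjusted p = 0.00482). The call was lost with slide as a fixed block and with scaling to 4 E1A probes. In floxed cells it was at -4.02, -4.14 and -3.86 under PBS and -3.63, -2.73 and -2.83 under CoCl2, also without overlap, but the change of 0.94 ± 0.29 was not called (adjusted p = 0.0996). Gm40662, beside Pfkp, was at -1.77, -2.08 and -1.79 in floxed PBS, -2.12, -1.50 and -1.65 in floxed CoCl2, -2.77, -2.74 and -3.64 in deleted PBS and -5.40, -5.23 and -5.07 in deleted CoCl2 cells. Its fall with CoCl2 in deleted cells was at least 4.54-fold (limma adjusted p = 0.00011), and the difference from floxed cells was -2.31 ± 0.36 (adjusted p = 0.00309). Gm30284, in Prkce beside Epas1, which encodes another oxygen-regulated HIF subunit, fell at least 3.83-fold in deleted cells (limma adjusted p = 0.000671).

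Beside genes of oxidative and metal stress, 12 records were tested. With CoCl2 in deleted cells 4 (33.3%) rose and 8 (66.7%) fell, beside 8.65% and 50.7% of all tested model records. Gm40137, beside Gclm, which encodes a subunit of the enzyme that starts glutathione synthesis, is counted among the rises (limma adjusted p = 0.000626), but it was detected on no deleted array, so no fold is given, and only its 3 floxed CoCl2 arrays carry a measured level. Gm31475 and Gm31535 flank Srxn1, which encodes sulfiredoxin. The former rose 2.07-fold (limma adjusted p = 0.0119), a call lost without deleted PBS array 2 (adjusted p = 0.0512) and with a change of -0.03 when scaled to 4 E1A probes. The latter fell at least 2.75-fold (limma adjusted p = 0.00189). Gm39742, beside the zinc exporter gene Slc30a1, fell at least 5.69-fold (limma adjusted p = 0.000327).

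Beside or within genes of vascular transcription factors and signalling, 50 records were tested. With CoCl2 in deleted cells 3 (6%) rose and 29 (58%) fell, beside 8.65% and 50.7% of all tested model records. Gm32069, beside Sox5, fell at least 6.85-fold (limma adjusted p = 0.000106) and Gm30695, beside Runx1, at least 5.84-fold (adjusted p = 0.000127). Gm34630, beside Zeb1, which encodes a repressor of epithelial genes, rose from -0.80, -0.98 and -0.20 to 0.34, 0.15 and 0.94, or 2.20-fold (limma adjusted p = 0.00488). The call was lost when scaled to 4 E1A probes, at 0.06 (adjusted p = 0.878), and with slide as a fixed block, at 0.68 (adjusted p = 0.187). Of 8 records beside cell cycle genes 1 (12.5%) rose and 4 (50%) fell. Gm41335, beside Myc, fell at least 5.29-fold (limma adjusted p = 2.31e-05), and Gm30912, beside the cyclin E gene Ccne1, at least 3.88-fold (adjusted p = 0.000388). Gm40531, beside Ccnb2, rose 1.49-fold (limma adjusted p = 0.0419), but the call was lost without floxed PBS array 2 or 3, floxed CoCl2 array 2, deleted PBS array 1 or 2, or deleted CoCl2 array 1 or 2 (adjusted p between 0.0511 and 0.139), and the change was -0.50 when scaled to 4 E1A probes.

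The other lists had few tested records. Their counts stand beside the 8.65% of all tested model records that rose and the 50.7% that fell with CoCl2 in deleted cells. Beside contractile genes of smooth muscle 4 of 8 fell and none rose with CoCl2 in deleted cells, among them Gm32942 beside the caldesmon gene Cald1, at least 2.65-fold (limma adjusted p = 9.82e-05), and Gm35150 beside the myosin light chain kinase gene Mylk, at least 3.34-fold (adjusted p = 0.000659). Beside genes of the extracellular matrix 4 of 10 fell, including Gm30003 within the elastin gene Eln, at least 3.14-fold (limma adjusted p = 0.00205), and Gm31115 beside Tnc, 3.09-fold (adjusted p = 0.00361). Beside genes of inflammation and interferon 1 of 7 rose and 5 fell, including 5330425B07Rik beside the adhesion molecule gene Vcam1, at least 3.58-fold (limma adjusted p = 5.59e-05), and a record of Gm36873 beside the chemokine gene Cxcl12, at least 3.30-fold (adjusted p = 0.000884). Another record of Gm36873 is counted separately among these falls (limma adjusted p = 0.00505). The rise was that of Gm32650 at Ccl5, 1.55-fold (limma adjusted p = 0.0329), lost without deleted PBS array 1 or 2 or deleted CoCl2 array 1 (adjusted p = 0.0908, 0.121 and 0.13) and at -0.44 when scaled to 4 E1A probes. All 5 records beside genes of p53 and the unfolded protein response fell. One of them is Gm30190, beside the apoptosis gene Pmaip1, which fell 2.93-fold (limma adjusted p = 0.0323), lost without deleted PBS array 1 or 2 or deleted CoCl2 array 1 (adjusted p = 0.0822, 0.104 and 0.139). Another is a record of 1700016J18Rik, beside Sesn1, which fell 3.75-fold (limma adjusted p = 0.00967). A further record of 1700016J18Rik, counted separately, fell 1.99-fold (limma adjusted p = 0.00145).

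Beside marker genes of other vessel cell types, 3 of 6 endothelial, 2 of 3 macrophage and 0 of 1 fibroblast records fell with CoCl2 in deleted cells, and none rose. The shares over all tested model records were 50.7% and 8.65%. The single fibroblast record, Gm32652 beside Dpt, had a change of -0.88 ± 0.35 (limma adjusted p = 0.0559). Gm38898, in Ano2 beside Vwf, was well detected everywhere and fell from 1.65 ± 0.22 to 0.44 ± 0.52 (SD, n = 3), 2.32-fold (limma adjusted p = 0.00166). Gm35383, at Flt1, fell 2.82-fold (limma adjusted p = 0.00246). Both macrophage falls were records of 1 gene, Gm34306, beside Ptprc. They fell 2.71-fold and 1.81-fold (limma adjusted p = 0.00418 and 0.0431). These are noncoding records near marker genes and not the markers, none of which has a named probe here.

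Deletion under PBS moved few model records past the threshold, although their median lay below that of other probes. Of 7745 records 29 were higher (0.374%, background 0.53%) and 147 lower (1.9%, background 1.04%) in deleted than in floxed cells. The count of 176 rested on single arrays. It was 1, 0 and 53 without floxed PBS array 1, 2 or 3, and 1, 19 and 2 without deleted PBS array 1, 2 or 3. It was 766, 27 and 23 without floxed CoCl2 array 1, 2 or 3, and 418 and 471 without deleted CoCl2 array 1 or 2. Without floxed PBS array 2, where limma called 0, 1924 records had an unadjusted p under 0.05, against 1763 and 1837 without array 1 or 3. The count was 2 with slide as a random block. Scaled to all E1A probes it was 10, of which 6 were higher.

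Gm34846, between Brd7 and Nkd1, was lower in deleted cells under both treatments. It was at 1.03, 1.15 and 0.62 in floxed PBS, -1.29, -0.59 and -1.67 in floxed CoCl2, -1.90, -1.05 and -2.63 in deleted PBS and -5.57, -4.25 and -4.76 in deleted CoCl2 cells, with no overlap between PBS groups. It was lower in deleted cells under PBS by -2.79 ± 0.43, or 6.93-fold (limma adjusted p = 0.0301), and under CoCl2 by -3.67 ± 0.43 (adjusted p = 3.47e-05). CoCl2 lowered it in floxed cells by -2.12 ± 0.43 (adjusted p = 0.0171) and in deleted cells by -3.00 ± 0.43 (adjusted p = 0.000301). The PBS call was lost without floxed PBS array 1 or 2 or deleted PBS array 1 or 3 (adjusted p = 0.0904, 0.101, 0.101 and 0.113).

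Gm39549, between Egfl6 and Tmsb4x, was the largest increase. It was at -2.94, -4.61 and -3.47 in floxed PBS and -0.78, -1.44 and -1.44 in deleted PBS cells, 5.49-fold higher (limma adjusted p = 0.0462), and under CoCl2 it was at -3.75, -5.78 and -4.36 against -1.38, -1.68 and -1.34, 8.96-fold higher (adjusted p = 0.000228). Deleted arrays lay above floxed arrays under both treatments. XR_871833 and XR_873223 were higher in deleted PBS cells, at least 4.39-fold and at least 3.91-fold (limma adjusted p = 0.0134 and 0.0454). Gm33243, between Prok2 and Rybp, and XR_881664 were lower, at least 6.53-fold and at least 5.46-fold (limma adjusted p = 0.0456 and 0.0459).

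Near listed genes, 1 of 128 records was higher (0.781%) and 3 were lower (2.34%) in deleted PBS cells, beside 0.374% and 1.9% of all tested model records. Both directions occurred at Cald1, where Gm38787 within the gene was 2.08-fold higher (limma adjusted p = 0.0491) and Gm32942 beside it 1.71-fold lower (adjusted p = 0.0463). Gm40662 beside Pfkp was 2.25-fold lower (limma adjusted p = 0.048) and Gm31292 within Tgfbr2, a receptor of TGF-β, 1.86-fold lower (adjusted p = 0.0472). All 10 calls named for deletion under PBS, including those of Gm34846 and Gm39549, were lost without floxed PBS array 1, floxed PBS array 2 or deleted PBS array 1, with adjusted p between 0.0524 and 0.144, and 9 of 10 without deleted PBS array 3. Without deleted PBS array 2 8 of the 10 were lost, without floxed CoCl2 array 3 also 8, without floxed PBS array 3 or floxed CoCl2 array 2 7 in each case, and without deleted CoCl2 array 3 1. With the replicate number as a block 7 of the 10 were called.

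Deletion under CoCl2 gave the most calls. Of 7745 records 4737 were lower in deleted cells (61.2%, background 36.7%) and 873 higher (11.3%, background 30.7%). Higher records made up 15.6% of the calls, against 28.3% after quantile normalization, 27.3% when scaled to all E1A probes, 34.2% among records detected on all 12 arrays and 0.107% when scaled to 4 E1A probes. With slide as a fixed block 2592 were lower and 94 higher. Near listed genes 93 of 128 were lower (72.7%) and 11 higher (8.59%), beside the 61.2% and 11.3% of all tested model records.

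Among the records named for this comparison, XR_870930 and 1500002F19Rik were at least 53.7-fold and at least 40.2-fold lower in deleted than in floxed CoCl2 cells (limma adjusted p = 2.14e-05 and 7.59e-06), and XR_885134 at least 29.7-fold (adjusted p = 3.96e-05). None of these was detected on a deleted CoCl2 array, and their folds are plain ratios of means rather than lower limits. Gm40662 was at least 11.1-fold lower (limma adjusted p = 4.15e-06). XR_877737 was at least 7.18-fold higher (limma adjusted p = 0.000183), a call lost with slide as a fixed block (adjusted p = 0.0732), and XR_876184 5.77-fold higher (adjusted p = 0.000475). XR_877737 was detected on only 1 deleted CoCl2 array and on no floxed CoCl2 array, so its fold rests mostly on undetected signals.

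Lincred2, beside Slc2a1 and with a CACGTG in its printed window, was at 2.49, 2.41 and 2.59 in floxed PBS, 2.21, 2.48 and 2.31 in floxed CoCl2, 2.05, 2.04 and 1.54 in deleted PBS and 1.44, 1.32 and 1.57 in deleted CoCl2 cells. It was 1.85-fold lower in deleted cells under CoCl2 (limma adjusted p = 0.000815), with no overlap, and 1.53-fold lower under PBS, where the test was not passed (adjusted p = 0.0682). The call was lost when scaled to all E1A probes and with slide as a fixed block. Mir217hg, the host transcript of a microRNA gene, was at -2.56, -2.62 and -2.91 in floxed CoCl2 and -4.91, -4.37 and -4.00 in deleted CoCl2 cells, at least 3.32-fold lower (limma adjusted p = 0.000234). Zfp286os and Tvp23bos were at least 5.71-fold and at least 4.05-fold lower (limma adjusted p = 1.38e-05 and 3.71e-05). All 3 records of Nr6a1os were lower, by -0.98, -0.58 and -0.39 (limma adjusted p = 0.000138, 0.00475 and 0.0283). XR_866167, the middle one, was not called when scaled to all E1A probes, at -0.17 (adjusted p = 0.444), or with slide as a fixed block (adjusted p = 0.075). The smallest of these, XR_866166, turned to 0.02 when scaled to all E1A probes. Its call was lost without floxed CoCl2 array 2 or 3 or deleted CoCl2 array 1 or 3 (adjusted p = 0.0633, 0.0751, 0.0631 and 0.086). Mir133a-1hg was 1.71-fold higher (limma adjusted p = 0.00427), with -0.46 when scaled to 4 E1A probes.

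By neighbourhood, Gm35818 beside Egln3, which encodes a prolyl hydroxylase of HIF, was at least 5.55-fold lower in deleted than in floxed CoCl2 cells (limma adjusted p = 0.000127). Gm30912 beside Ccne1 was at least 9.23-fold lower (adjusted p = 1.01e-05) and Gm29978 beside the proliferation marker gene Mki67 at least 10.5-fold (limma adjusted p = 0.000212). Gm30695 beside Runx1 and Gm33638 beside the phosphatase gene Dusp4 were at least 13.4-fold and at least 11.3-fold lower (limma adjusted p = 6.34e-06 and 1.12e-05). Gm30190 beside Pmaip1 was 10.9-fold lower (adjusted p = 0.000241) and Gm39742 beside Slc30a1 at least 8.94-fold (limma adjusted p = 3.26e-05). In the other direction, Gm34630 beside Zeb1 was 2.70-fold higher (limma adjusted p = 0.000759), and Gm32210 beside the thrombospondin gene Thbs1 2.81-fold (adjusted p = 0.00447). Gm32643 within the neuropilin gene Nrp1 was 2.05-fold higher (limma adjusted p = 0.006) and 8030431J09Rik beside the catalase gene Cat 1.76-fold (adjusted p = 0.00152), and both turned lower when scaled to 4 E1A probes, at -0.19 and -0.42. That scaling also ended the calls of Gm34630 and Gm32210, at 0.21 and 0.26 (limma adjusted p = 0.615 and 0.608), and slide as a fixed block ended those of Gm34630, Gm32210 and Gm32643 (adjusted p = 0.234, 0.186 and 0.202).

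The difference between the CoCl2 effects, deleted minus floxed, was lower in 2322 of 7745 records (30%, background 17.2%) and higher in 49 (0.633%, background 2.54%). The total of 2371 was 1427 without floxed PBS array 2, 1287 and 1422 without floxed CoCl2 array 2 or 3, and 1272 and 1292 without deleted PBS array 1 or 2. With slide as a fixed block it was 34, and with slide as a random block 1226.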

How the data were processed

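Total RNA from the cultured cells was labelled with cyanine-3, and each sample was hybridised to its own Agilent array, per the labels' protocols. Spot intensity in the deposited files is linear; Agilent Feature Extraction 11.5.1.1 is the version named per the file headers, and 9.1 in the processing notes of the submitters. A deposited value table gives log2 values. They differed from the scanner values by a constant per array to within 0.01 for every probe on 9 arrays, with 1 probe past that on each of the other 3, their medians ran from -2.64 to -1.93, and the steps by which the authors made them are not given in the sources used. Per the file headers, mm9 is the build of the design; its coordinates were not used. Names and neighbours came from RefSeq's GRCm38.p6 annotation.

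Each array had 175904 spots outside the controls. Outlier-marked spots (12 to 151 per array) were left out unless a probe had no other, spots were averaged as log2 of the background-corrected processed signal, and each array was scaled to its 75th percentile by subtraction. Probes that all 3 arrays of some group marked as well above background were fitted with limma 3.58.1 in R 4.3.3 (1 mean per group, 5 contrasts, 8 residual and 3.5 prior degrees of freedom), which was tested on simulated data. The number of arrays limits the precision. For folds marked "at least", array values of the dim group were raised to the array's lowest signal among well-detected probes where the record lay under it. They were then averaged and set against the bright group's mean. Most such records already lay above that signal, so their folds did not change. The files hold no mean spot signal, so the normexp alternative (offset 50) used median spot and background signals.

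In floxed cells, deviations from the group mean correlated between PBS and CoCl2 arrays of the same number (0.389, 0.402 and 0.441), so the numbers may pair them. In deleted cells arrays 2 and 3 did so and array 1 did not (-0.134, 0.269 and 0.225 for arrays 1 to 3), so their numbers were not taken as pairs. The main fit set no pairs in either genotype, and blocks for the replicate number were run only as alternatives.

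The records, lists and tests were chosen with earlier results of these data known. Named were, per contrast, among calls with non-overlapping groups (a condition not set for the difference of effects), the 8 largest rises and 8 largest falls with an established symbol, 3 and 3 of the others, and 2 and 2 per gene list. Gm29992's and Gm34846's other contrasts and XR_863519's likeness to Gm36843 were looked at after their values were seen.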

Additional observations from a re-analysis of the deposited data

Results flagged for a closer look

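A total of 26 model records named by the rule for the difference between the CoCl2 effects (deleted minus floxed) are listed because the effect of CoCl2 differed between the genotypes by the interaction term of the limma fit. All values are on the log2 scale. Of the 26, 23 had a lower effect in deleted cells.

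Gm36843, between Irx3 and Irx5, differed by -5.12 ± 0.59 (SE; limma adjusted p = 0.00106), with effects of 0.93 in floxed and -4.20 in deleted cells. XR_863519 differed by -4.83 ± 0.54 (limma adjusted p = 0.000989) and XR_870930 by -4.37 ± 0.86 (adjusted p = 0.00764). The established symbols were Zfp286os at -1.54, Tvp23bos at -1.45 and Mir217hg at -1.36. The last had effects of 0.84 in floxed and -0.52 in deleted cells, and it was not called with the replicate block within genotype (limma adjusted p = 0.0578).

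Beside genes of hypoxia and glycolysis, Gm40662 at Pfkp differed by -2.31 and Gm35818 at Egln3 by -1.87. Beside cell cycle genes, Gm41335 at Myc differed by -2.33 and Gm30912 at Ccne1 by -1.95. Beside transcription factor genes, Gm30695 at Runx1 differed by -2.69 and Gm32069 at Sox5 by -2.64. Beside genes of metal and oxidative stress, Gm39742 at Slc30a1 differed by -2.42 and Gm31535 at Srxn1 by -1.57. At Pmaip1, Gm30190 differed by -2.54, and at Sesn1 a record of 1700016J18Rik by -1.08. At Cald1, Gm32942 differed by -1.35. At Vcam1, 5330425B07Rik differed by -1.64, and at Cxcl12 a record of Gm36873 by -1.21. In all of these except Gm30190 and Gm35818 the effect in floxed cells lay between -0.20 and 0.34. Another record of Gm36873 differed by -0.99 and another of 1700016J18Rik by -1.53, and neither was called (limma adjusted p = 0.118 and 0.157). Their effects in floxed cells were -0.73 and -0.38.

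Near endothelial genes, Gm35383 at Flt1 differed by -1.61 and Gm38898 beside Vwf by -1.07. Near matrix genes, Gm31115 at Tnc differed by -1.60 and Gm39637 at Col5a2 by -1.49. With the replicate number as a block, Gm38898, Gm31115 and Gm39637 were not called (limma adjusted p = 0.0583, 0.0529 and 0.062).

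Effects higher in deleted cells were those of Gm31712, at 2.03, XR_878592, at 1.92, and XR_884847, at 1.85. Gm31712 had effects of -1.41 in floxed and 0.62 in deleted cells. XR_878592 and XR_884847 had effects of -0.34 and -0.03 in floxed cells and of 1.58 and 1.82 in deleted cells. None of the 3 was called when scaled to 4 E1A probes (limma adjusted p = 0.168, 0.161 and 0.192), where XR_878592 and XR_884847 differed by 0.99 and 0.92. The calls of 11 of the 26 were lost on leaving out single arrays. XR_884847, Gm38898 and Gm39637 each lost theirs without any 1 of 9 arrays (limma adjusted p from 0.0504 to 0.0887, 0.0562 to 0.111 and 0.0536 to 0.107). Gm31115 and Gm30190 each did so for 8 arrays (0.0644 to 0.122 and 0.0646 to 0.0977) and Gm35383 for 7 (0.0601 to 0.0767). Mir217hg, Gm35818 and Gm31535 each did so for 6 (0.0599 to 0.0839, 0.0503 to 0.0693 and 0.0528 to 0.0672), and the records of Gm36873 and 1700016J18Rik for 3 (0.0518 to 0.054 and 0.0513 to 0.0565). With quantile normalization Mir217hg differed by -0.62 and was not called (limma adjusted p = 0.254).

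With slide as a fixed block, 34 of the 7745 tested model records had a called difference between genotypes, against 2371 without it. Of the 26 named ones, Gm36843 and XR_863519 were called with it.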

How the results depend on the processing

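Counts of calls moved with slide, scaling, filter and single arrays, and the causes were not tested. The gap to other probes of equal signal was not computed with slide or replicate as a block, or with detection required on all spots. Over the other alternatives it ranged from -0.52 to -0.15 for CoCl2 in deleted cells and from -0.26 to -0.15 for deletion under PBS. It ranged from -0.94 to -0.51 for deletion under CoCl2, from -0.61 to -0.28 for the difference of effects and from -0.01 to 0.04 for CoCl2 in floxed cells. Values beyond the spread between replicates are given in the order CoCl2 in deleted cells, deletion under CoCl2, difference of effects: -0.23, -0.51 and -0.28 with normexp and quantile normalization, -0.29, -0.60 and -0.38 with bins by the mean of all 12 arrays, -0.29, -0.59 and -0.35 without a filter, and -0.15, -0.52 and -0.31 against curated records only. Limited to probes detected on all 12 arrays, the last 2 were -0.72 and -0.43, and with quantile normalization the difference of effects was -0.45. Other numbers of bins and probes with equal spots moved none beyond that spread.

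The median over all model records for deletion under CoCl2 was -0.09 with quantile normalization, -0.05 with normexp and quantile normalization, -0.72 with the percentile over probes detected on all arrays, -0.00 with all E1A probes, -1.65 with 4 E1A probes and -0.22 in records detected on all 12 arrays. For deletion under PBS it was -0.10 (quantile), -0.05 (normexp and quantile), -0.07 (all E1A), -0.61 (4 E1A) and -0.09 (all 12 arrays), for CoCl2 in deleted cells -1.23 and for the difference of effects -1.11 with 4 E1A probes. The 4 E1A probes, and detection on all spots, were added after seeing the data.

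Counts of called records for CoCl2 in floxed cells were 79 with all E1A probes, 52 with 4, 57 with slide as a fixed and 101 as a random block. For CoCl2 in deleted cells they were 1875 in records detected on all 12 arrays and 2135 with slide fixed, and for deletion under CoCl2 2321 and 2686. For deletion under PBS they were 609 (percentile over probes detected on all arrays), 10 (all E1A), 831 (4 E1A), 576 (normexp), 80 (no filter), 388 (slide fixed) and 2 (slide random). For the difference of effects they were 1099 (quantile), 785 (normexp), 3713 (no filter), 629 (all 12 arrays), 34 (slide fixed), 1226 (slide random) and 4981 (4 E1A). The replicate block gave 161, 4626, 137, 5629 and 2337, and within genotype 220 and 4804 for CoCl2 in floxed and deleted cells and 2321 for the difference of effects. The deletion comparisons have no estimate within genotype, because such a block absorbs the genotype. With the deposited value table counts were within 2 of the main ones.

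Leaving out 1 array at a time gave 43 to 306 calls for CoCl2 in floxed cells, 3722 to 4893 in deleted cells, 0 to 766 for deletion under PBS, 5118 to 6251 for deletion under CoCl2 and 1272 to 3056 for the difference. Medians ranged from -0.04 to 0.08, -0.20 to -0.12, -0.35 to -0.26, -0.56 to -0.32 and -0.29 to -0.12, and gaps at equal signal from -0.01 to 0.04, -0.52 to -0.38, -0.26 to -0.17, -0.94 to -0.77 and -0.61 to -0.45. Detection ranged from 63.4% to 66.3% (floxed PBS), 64.9% to 75.3% (floxed CoCl2), 64.1% to 64.8% (deleted PBS) and 35.1% to 39.9% (deleted CoCl2). By the looser mark for signal above background it was 86.2%, 88%, 86.7% and 68.2%.

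Of 124 named calls, 69 were lost with slide as a fixed block, 27 as a random block, 26 with quantile normalization and 33 with normexp and quantile normalization. With the replicate block within genotype 3 of 71 were lost. Signs turned with 4 E1A probes for CoCl2 in deleted cells in Mir133a-1hg (-0.11), Gm40531 (-0.50), Gm32650 (-0.44) and Gm31475 (-0.03), and for deletion under CoCl2 in Mir133a-1hg (-0.46), Gm40531 (-0.46), Gm32650 (-0.52), Gm31475 (-0.10), 8030431J09Rik (-0.42), Gm38787 (-0.59) and Gm32643 (-0.19). With all E1A probes a record of Nr6a1os turned to 0.02.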

Other observations

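Records without a symbol and placeholder genes differed in size of change. Over those detected in floxed PBS cells, the 2071 records named Gm had a median of -0.85 for CoCl2 in deleted cells and -1.32 for deletion under CoCl2, and the 70 RIKEN-named ones -0.96 and -1.49. The 5029 records without a symbol had -0.66 and -0.97, and the 10 with an established symbol -0.48 and -0.73. The 13 records with an LOC symbol had -0.49 and -1.45. For CoCl2 in floxed cells the medians of the other 4 classes lay between -0.03 and 0.02. The 2 spots of a model record differed by a median of 0.13 to 0.19 (log2) per array, and those of other probes printed on 2 spots by 0.09 to 0.13.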
